A study of Mus musculus with 36 samples.

Results

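Removal of β-catenin by Cre in nephron progenitor cells (NPCs) kept in low CHIR was followed here by RNA-seq, across all genes, in 4 libraries out of the 36 of the series: 2 libraries of NPCs that received Cre (Cre) and 2 that did not (no Cre). These libraries are the ones labelled Cre positive and Cre negative at 1.25 µM CHIR, and the genes described are the 16780 of 26863 whose normalized counts averaged 10 or more over the 16 libraries of their table. NPCs of both groups were primary cells of embryonic mouse kidney, homozygous for a conditional allele of *Ctnnb1*, and both stayed in low CHIR, an inhibitor of the kinase GSK3, in nephron progenitor expansion medium (NPEM). Cre was delivered as an mRNA with an mCherry reporter mRNA, and cells positive for the reporter were sequenced in both groups, so no promoter restricted its activity to a cell type. Whether the no Cre cells received another mRNA in place of Cre mRNA is not given in the sources used here. Receipt of Cre mRNA and loss of the allele cannot be told apart in this comparison. A set of 3 further comparisons serves as a reference: the *Ctnnb1* sgRNA against the GFP sgRNA in Cas9-expressing NPCs in low CHIR, Cre against no Cre in high CHIR (5 µM), and no CHIR against low CHIR in wild-type NPCs.

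β-catenin has 2 roles in a cell: it joins cadherins to the actin cytoskeleton at adherens junctions, and it enters the nucleus as the co-activator of Tcf/Lef factors when Wnt signaling, or an inhibitor of GSK3, halts its destruction. NPCs are the cap mesenchyme cells that form all nephrons. In these cells a low Wnt input goes with proliferation and self-renewal, and a high input with induction, the step at which the cells leave the progenitor pool and begin to form an epithelium.

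All 4 libraries were deep, with 19053280 and 14537850 reads on genes with Cre and 20079044 and 21302905 without. The SD of the log2 difference between replicates was 0.89 in the no Cre group, the widest of the 8 groups of the table, and 0.67 in the Cre group, where the other 6 ranged from 0.55 to 0.72. The first no Cre library had the fewest genes with a value above 0 (22188, against 24278 to 24640 in the other 3). Some genes, among them genes of amino acid supply, had more RNA in replicates 1 of both groups than in replicates 2. No list of amino acid supply genes was tested. *Bcat1*, a transaminase of branched-chain amino acids, had 1296 and 59.5 normalized counts in the 2 no Cre libraries and 742 and 81.1 in the 2 Cre libraries, and the amino acid transporter *Slc7a5* 1509 and 102 and 709 and 124. Nothing in the labels says that same-numbered libraries share a culture or an animal, and the main test did not pair them. Its p-values rest on the spread between replicates pooled over the 8 groups of the table, not on these libraries alone. A difference shared by same-numbered libraries is part of that spread. Whether the spread is technical was not tested, and it may be.

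Counts on *Ctnnb1* itself (ENSMUSG00000006932, chromosome 9, 120929216 to 120960507) were 3085 and 2451 normalized counts with Cre and 3880.1 and 3097 without. The ranges do not overlap, but the step was small, -0.33 on the log2 scale (standard error, SE, 0.23, 95% interval -0.83 to 0.17; adjusted p = 0.657, limma with Benjamini-Hochberg adjustment, as are all adjusted p-values here unless another tool is named). Reads were summed over the whole gene, and the value therefore does not say how many cells had lost the floxed exons. The paper measured removal as protein. It reports, by immunostaining, a significant loss of β-catenin at the membrane of cells transfected with Cre, before the last culture step. With the sgRNA, *Ctnnb1* had 1652 and 1039.6 normalized counts against 2521 and 3397 with the GFP sgRNA (log2 fold change -1.16, adjusted p = 0.252).

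**Figure D1:**
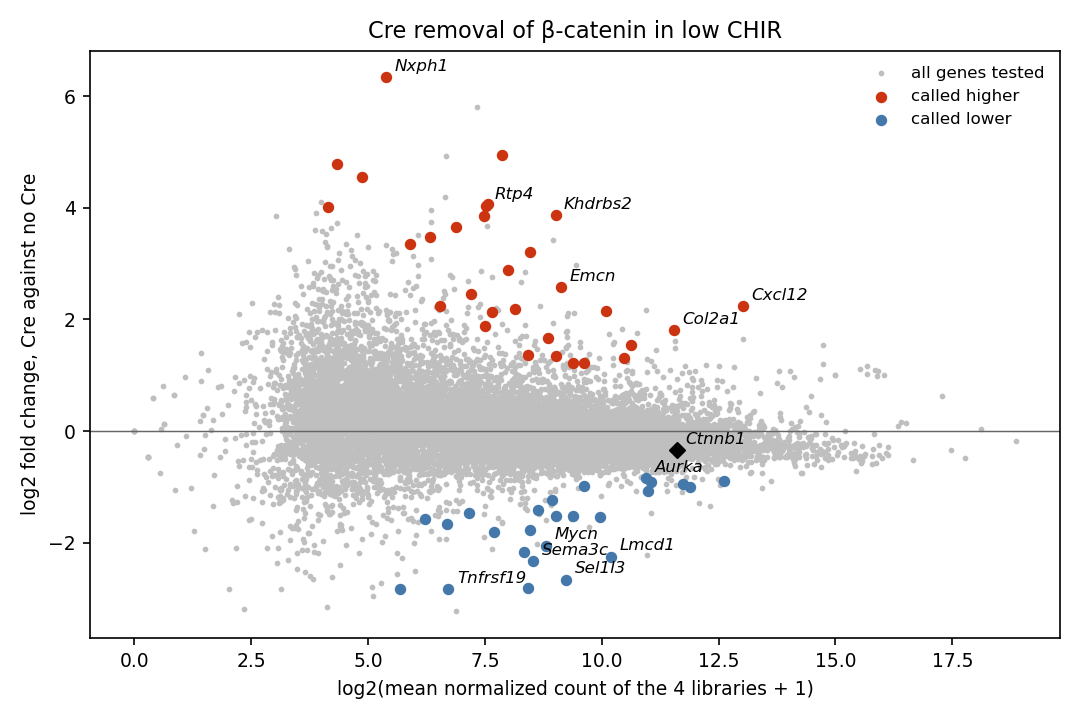
Log2 fold change of each of the 16780 genes tested, Cre against no Cre in low CHIR, against log2 of the mean normalized count of the 4 libraries plus 1. Red and blue points are the 30 genes called higher and the 25 called lower, and the black diamond is *Ctnnb1* at -0.33.

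On Cre removal 30 genes rose (0.179% of the genes tested) and 25 fell (0.149%), with the adjusted p below 0.05 and a change of 0.5 or more on the log2 scale. All 55 had groups that did not overlap, which is no rare thing with 2 libraries a group: 2707 genes (16.1%) lay wholly higher and 3054 (18.2%) wholly lower with Cre. With 2 against 2 libraries an exact two-sided permutation test of a single gene cannot go below p = 0.333, and the calls rest on the spread pooled over genes and over the 16 libraries. Of the 55 genes, edgeR's quasi-likelihood test on reads recovered from the values also called 41 and DESeq2 called 53. Not called by edgeR were *Aurka*, *Dlgap1*, *Hmgb3*, *Hoxa11os*, *Nnmt*, *Nsg2*, *Oas1g*, *Oasl2*, *Pbk*, *Plxnd1*, *Sinhcaf*, *Slc8a1*, *Tgfa* and *Tmem35a*. DESeq2 did not call *Nsg2* and *Oas1g*. The size of the lists depended on single libraries. Without the first no Cre library 10 genes were called higher and 8 lower, without the second 193 and 110, without the first Cre library 10 and 21, and without the second Cre library 11 and 12. Of the 55 genes 18, 48, 23 and 20, in that order, were still called. In each of these 4 fits all 55 kept the sign of their log2 fold change.

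**Figure D2:**
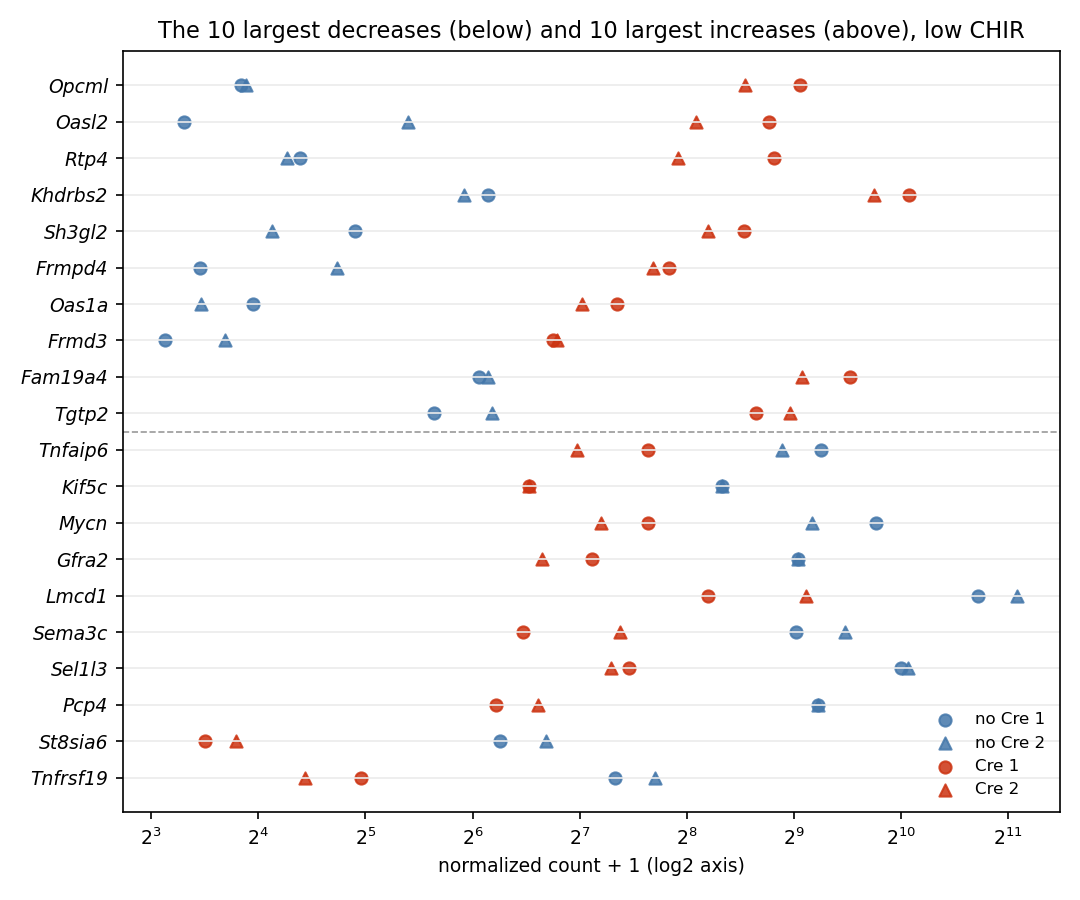
Normalized count plus 1 (log2 axis) in each of the 4 libraries for the 10 largest decreases and the 10 largest increases among called genes with a mean of at least 50. Blue marks are no Cre and red marks Cre libraries, with a circle for replicate 1 and a triangle for replicate 2. In all 20 genes the 2 colors stay apart, which was a condition for a gene to be drawn.

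Receptors and ligands were among the genes that fell. *Tnfrsf19* (Troy), a receptor of the TNF family and a known Wnt target, had 159.9 and 207 normalized counts in the no Cre libraries and 30.01 and 20.6 with Cre (log2 fold change -2.82, SE 0.33, adjusted p = 0.00161). *Sema3c*, a secreted guidance ligand, went from 519 and 709.6 to 88.0 and 165 (-2.32, adjusted p = 0.00161). *Gfra2*, the co-receptor for neurturin in the GDNF family, was nearly equal in the 2 no Cre libraries at 524 and 523 and had 138 and 99.1 with Cre (-2.15, adjusted p = 0.00728). *Tgfa*, a ligand of the EGF receptor, had 222 and 194 against 70.4 and 78.5 (-1.47, adjusted p = 0.0405). *C1qtnf12*, a secreted protein of the C1q and TNF family that is known from nephron induction, was more abundant and changed less, with 2797 and 2670.1 against 1316 and 1290.0 (-1.07, adjusted p = 0.00515). *Tnfaip6*, a hyaluronan-binding protein, had 611 and 472 without and 199 and 125 with Cre (-1.76). In each of the 6 genes both Cre libraries were lower than both no Cre libraries.

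Regulators in the nucleus were among them too. *Mycn*, a Myc-family transcription factor of proliferating embryonic progenitors, had 867 and 575 normalized counts without and 199 and 145 with Cre (-2.05, SE 0.30, adjusted p = 0.00741). Without the first no Cre or the second Cre library *Mycn* was not called. None of the other 10 genes tested of the Myc and Mxd network passed the test, and *Myc* itself had 1625 and 1504 against 1449 and 1730.3 (0.02). *Lmcd1*, a LIM-domain co-regulator, went from 1681 and 2168 to 292 and 552 (-2.25, adjusted p = 0.0155). *Sinhcaf*, a subunit of the Sin3 histone deacetylase complex, had 5240.4 and 4807 against 2275 and 2758 (-1.003), and the chromatin protein *Hmgb3* 9036 and 7410.4 against 4663 and 4139 (-0.90). *Hoxa11os* is the antisense transcript of *Hoxa11*, and it fell from 1127 and 940.4 to 622 and 442 (-0.97, adjusted p = 0.0405). No strand setting is stated for the counts, so that reads of this gene and of *Hoxa11*, at 739.6 and 487 against 344 and 353, cannot be told apart where they overlap.

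The rest of the genes that fell were of mixed kinds. *Pcp4*, a small calmodulin-binding protein, had 599 and 598 normalized counts without and 73.5 and 96.6 with Cre, and the lowest adjusted p among the genes that fell (-2.81, SE 0.24, adjusted p = 0.000203). *Sel1l3* had 1022 and 1069.5 against 175 and 156 (-2.66, adjusted p = 0.000216). Enzymes of glycan synthesis were among them: *St8sia6*, a sialyltransferase, at 75.5 and 102 against 10.3 and 12.9 (-2.82), and *Hs3st3b1*, which sulfates heparan sulfate, at 968 and 1025 against 318 and 376 (-1.52). *Kif5c*, a kinesin heavy chain, barely differed between replicates, with 319.8 and 321 against 91.1 and 91.4 (-1.80, adjusted p = 0.00161). *Syt9*, a synaptotagmin, had 165 and 148 against 49.7 and 47.6 (-1.67), and *Trim2*, a ubiquitin ligase, 559.7 and 592 against 216 and 214 (-1.42). The kinases *Aurka*, of the mitotic spindle, and *Pbk* had 2899.5 and 2215 against 1469.6 and 1356 (-0.84) and 5327 and 3724 against 2585 and 2065 (-0.95). *Vat1l*, *Naaa*, *Ptpn13*, *Tmem35a* and *Kif26b* made up the 25, with log2 fold changes between -1.57 and -0.92.

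A pair of the genes that fell, *Mycn* and *Tnfrsf19*, are shown with a stretch of promoter, since each of these windows holds the letters CTTTGA, the core of the site that Tcf/Lef factors bind. Sequences are those of RefSeq (GRCm38.p6), from 250 bases before to 50 bases after the start of transcription and on the strand of the gene, with matches on either strand in capitals (TCAAAG where the match is on the other strand). The *Mycn* window is chr12:12941787-12942086 and the *Tnfrsf19* window, 1 of 2 of that gene, chr14:61037938-61038237, both on the minus strand.
Mycn: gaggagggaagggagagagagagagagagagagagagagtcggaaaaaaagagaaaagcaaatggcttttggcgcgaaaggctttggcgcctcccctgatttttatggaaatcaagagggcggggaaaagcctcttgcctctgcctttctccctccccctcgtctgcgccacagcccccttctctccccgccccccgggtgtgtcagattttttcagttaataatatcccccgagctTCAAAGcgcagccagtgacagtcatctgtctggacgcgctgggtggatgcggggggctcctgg
Tnfrsf19: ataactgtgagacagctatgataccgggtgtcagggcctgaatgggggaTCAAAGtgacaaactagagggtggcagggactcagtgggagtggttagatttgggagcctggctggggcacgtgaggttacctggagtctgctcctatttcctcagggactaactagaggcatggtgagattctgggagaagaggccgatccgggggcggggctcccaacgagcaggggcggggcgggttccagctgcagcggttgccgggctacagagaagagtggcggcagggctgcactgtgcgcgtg
The match begins 13 bases before the start in *Mycn* and 201 bases before it in *Tnfrsf19*. Of the 21 genes that fell and have a window, 7 (33.3%) held CTTTGA on either strand in at least 1 window, against 18.2% of all 27025 genes with a window. *Sel1l3*, *Gfra2*, *C1qtnf12* and *Pbk* had no entry in that table. A match of 6 letters is a description of the sequence and not a bound site.

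Genes of the interferon response had positive values throughout. Interferons, and sensors of foreign RNA in the cytoplasm, switch on this set of antiviral genes through Stat and Irf factors. All 22 genes tested of the 25 listed had a positive log2 fold change on Cre removal, 18 of them at an unadjusted p under 0.05 (4.86% of all genes tested were higher at that level), and their median log2 fold change was 2.19, against -0.0068 over all genes tested. A gene could reach the mean of 10 through the Cre libraries alone, so that the 22 are not a random part of the list. Without the first Cre or the first no Cre library 21 of the 22 stayed positive, with medians of 2.01 and 2.03. *Oas1a*, *Rtp4* and *Oasl2* passed the adjusted threshold. *Rtp4* and *Oasl2* lost the call without the first no Cre library or without either Cre library, and *Oas1a* lost it without any 1 of the 4. *Oasl2*, of the family of 2′-5′ oligoadenylate synthetases that sense double-stranded RNA, had 434 and 270.4 normalized counts with Cre and 8.88 and 41.2 without (4.07, SE 0.69, adjusted p = 0.0245), and was not called by edgeR. *Oas1a* had 162 and 129 against 14.4 and 10.1 (3.48, adjusted p = 0.0348). *Rtp4*, a chaperone of receptors that is known as an interferon-induced gene, had 450.2 and 241 against 20.0 and 18.3 (4.04, adjusted p = 0.0276). *Ifit1* had 374 and 237 against 0 and 27.5 (5.81) and *Isg15*, a ubiquitin-like modifier, 435 and 256 against 23.3 and 27.5 (3.67), and they missed the threshold at adjusted p = 0.0505 and 0.0759. In *Ifit1*, *Isg15* and the 3 called genes the Cre and no Cre libraries lay far apart.

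Interferon-linked genes outside that list rose as well. The GTPases *Tgtp1* and *Tgtp2* had 389 and 536 and 398 and 497 normalized counts with Cre, against 90.0 and 109 and 48.9 and 71.4 without (2.19 and 2.89, adjusted p = 0.00741 and 0.004). *Oas1g* had 49.7 and 57.9 against 4.44 and 0 (4.55, adjusted p = 0.0405), and neither edgeR nor DESeq2 called it. The ubiquitin ligase *Dtx3l* had 175 and 131 against 32.2 and 30.2 (2.24). *Tgtp1* and *Tgtp2*, and likewise *Oas1a* and *Oas1g*, are close copies, and the authors counted uniquely aligned reads only, so that the share of each copy is uncertain. These genes were chosen after their values were seen.

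In the libraries of Cas9-expressing NPCs, which received an sgRNA in both groups, several of these genes lay between the no Cre and the Cre libraries. *Isg15* had 162 and 47.6 normalized counts with the GFP sgRNA and 154 and 70.7 with the *Ctnnb1* sgRNA, against 23.3 and 27.5 without and 435 and 256 with Cre. For *Rtp4* these values were 108 and 48.7 with the GFP sgRNA and 133 and 107 with the *Ctnnb1* sgRNA. Over the 22 genes the median log2 fold change was 0.41 on Cas9 removal in low CHIR, with 19 genes positive and none called, 2.36 on Cre removal in high CHIR, with 14 called higher, and 0.75 for no CHIR against low CHIR in wild-type NPCs, over the 19 genes tested there. The part that Cre mRNA has in these values was not tested.

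**Figure D3:**
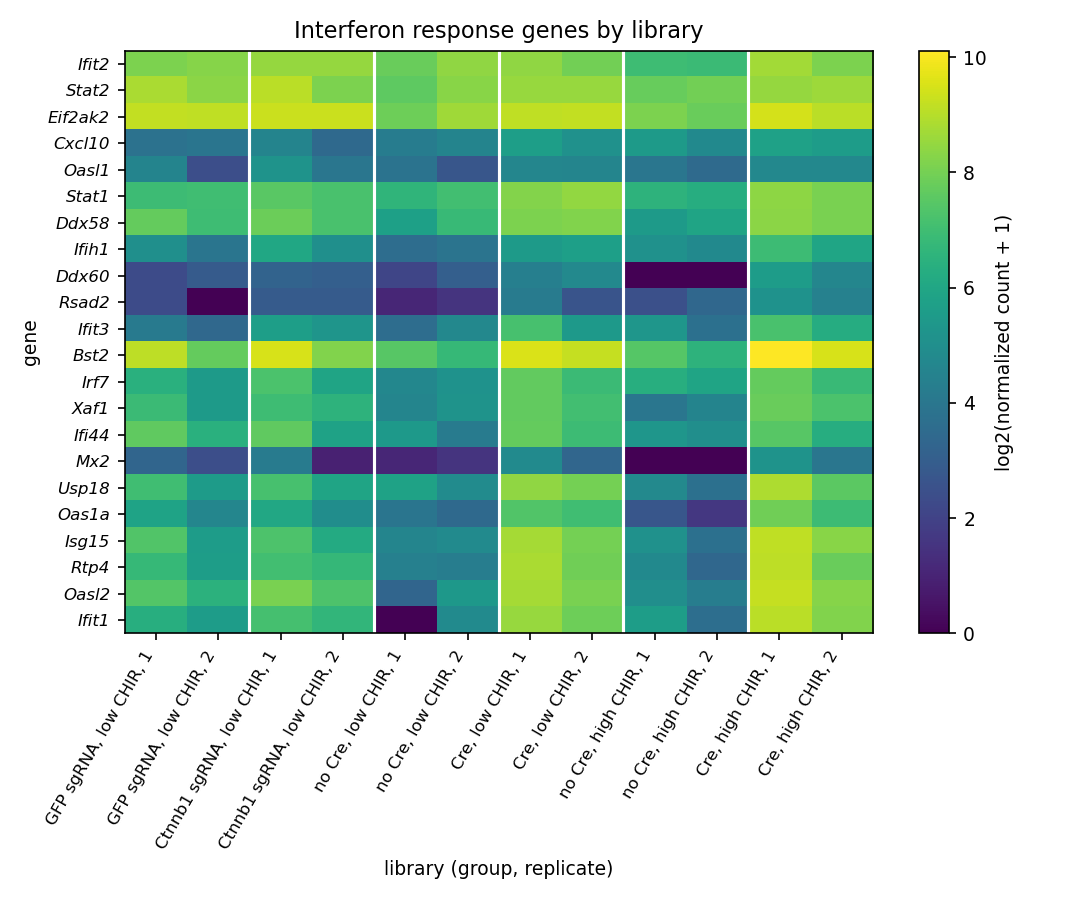
Log2(normalized count + 1) of the 22 interferon response genes (rows, ordered by the log2 fold change in low CHIR) in 12 libraries of the same table (columns, grouped by sgRNA or Cre and by CHIR). In most rows the Cre libraries of low and high CHIR are brighter than the no Cre libraries (median log2 fold changes of 2.19 and 2.36), while the GFP sgRNA and *Ctnnb1* sgRNA libraries differ less (0.41).

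Promoter windows of 4 of these genes show a shared element. The core of the element that interferon-activated factors bind is a pair of GAAA with any 2 bases between them, and it is given in capitals. The windows are chr5:120907476-120907775 (*Oas1a*), chr5:120887564-120887863 (*Oas1g*), chr11:48992197-48992496 (*Tgtp1*) and chr11:49064163-49064462 (*Tgtp2*), all on the minus strand (GRCm38.p6).
Oas1a: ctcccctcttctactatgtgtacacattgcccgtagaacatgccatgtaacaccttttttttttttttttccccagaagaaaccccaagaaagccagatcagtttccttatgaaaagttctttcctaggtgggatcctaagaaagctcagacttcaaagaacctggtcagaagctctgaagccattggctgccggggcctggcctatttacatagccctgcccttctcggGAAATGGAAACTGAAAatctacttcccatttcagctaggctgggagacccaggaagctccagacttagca
Oas1g: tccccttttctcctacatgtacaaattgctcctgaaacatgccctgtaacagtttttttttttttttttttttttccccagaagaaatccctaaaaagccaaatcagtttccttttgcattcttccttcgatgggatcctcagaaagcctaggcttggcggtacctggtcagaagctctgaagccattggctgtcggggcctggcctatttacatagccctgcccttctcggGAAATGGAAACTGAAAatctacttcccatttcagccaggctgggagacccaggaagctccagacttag
Tgtp1: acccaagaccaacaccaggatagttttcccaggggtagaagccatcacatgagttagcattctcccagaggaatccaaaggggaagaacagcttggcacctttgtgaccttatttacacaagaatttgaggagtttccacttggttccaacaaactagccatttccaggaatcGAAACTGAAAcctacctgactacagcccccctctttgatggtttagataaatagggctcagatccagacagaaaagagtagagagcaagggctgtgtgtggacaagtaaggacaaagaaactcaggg
Tgtp2: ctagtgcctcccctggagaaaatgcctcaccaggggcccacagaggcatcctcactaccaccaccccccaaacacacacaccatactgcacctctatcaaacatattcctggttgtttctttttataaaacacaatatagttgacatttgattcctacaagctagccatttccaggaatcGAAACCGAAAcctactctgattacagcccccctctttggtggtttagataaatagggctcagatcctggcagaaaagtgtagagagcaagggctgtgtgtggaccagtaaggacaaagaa
In *Oas1a* and *Oas1g* a pair of overlapping matches begins 20 and 14, and 18 and 12, bases before the start, and the 16 letters they cover are the same in both genes. The *Tgtp1* and *Tgtp2* matches begin 77 and 70 bases before it. Of the 26 genes that rose and have a window, 5 (19.2%) held these letters on either strand, the other being *Nsg2*, against 3.99% of all genes with a window and 1 of 21 genes that fell (4.76%). *Oas1a* and *Oas1g* are close copies, as are *Tgtp1* and *Tgtp2*, so that the matches of these 4 genes are not independent of each other. The core CTTTGA was in 6 of the 26 (23.1%). *Rtp4*, *Nnmt*, *Col2a1* and *Angpt2* had no entry. No match was found in the windows of *Oasl2* and *Dtx3l*, which says only that these letters are not in these 300 bases.

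Several of the other increases were in genes known from neurons. *Khdrbs2*, a splicing factor, had 1076 and 856 normalized counts with Cre and 70.0 and 59.5 without (3.87, SE 0.44, adjusted p = 0.00161). *Sh3gl2* (endophilin A1), which acts in synaptic vesicle recycling, had 368 and 292 against 28.9 and 16.5 (3.85, adjusted p = 0.00161). *Opcml*, a cell adhesion molecule anchored in the membrane by a lipid, had 533 and 372 against 13.3 and 13.7 (4.94, adjusted p = 0.00399). The secreted *Fam19a4* (now *Tafa4*) had 733 and 539 against 65.5 and 69.6 (3.20, adjusted p = 0.00267). *Frmpd4* and *Dlgap1*, scaffolds of the postsynaptic density, had 228 and 205 against 9.99 and 25.6 (3.66) and 2055 and 1419 against 239.9 and 611 (2.15), the latter not called by edgeR. *Frmd3*, a FERM-domain protein, had 107 and 109 against 7.77 and 11.9 (3.36, adjusted p = 0.0405). *Nxph1* (neurexophilin 1) had no read in either no Cre library and 98.3 and 64.4 normalized counts with Cre, at least 26.8-fold higher than 3 counts a library. *Nsg2* and *Nnmt* had 3 and 1 reads in all in the no Cre libraries, against 21 and 33 reads, and 43 and 24 reads, with Cre. Genes known from neurons were among those that fell as well, such as *Pcp4*, *Kif5c* and *Syt9*. No list of neuronal genes was tested here, so that no direction is given for such genes as a set.

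*Angpt2* and *Emcn*, known from blood vessels, were among the genes that rose. *Angpt2*, a ligand of the endothelial receptor Tie2, had 315 and 184 normalized counts with Cre and 34.4 and 53.1 without (2.46, SE 0.34, adjusted p = 0.00534). It was called alone among the 7 tested genes of the list of angiogenic signals, where 0.179% of all genes tested were called higher. *Emcn* (endomucin) had 1174 and 748 against 165 and 147 (2.58, adjusted p = 0.0138). *Cxcl12*, a chemokine, was the most abundant of the 30, with 9944 and 17349 against 2141 and 3580.2 (2.25, adjusted p = 0.0101). *Col2a1*, the chain of type II collagen, had 5274 and 3938 against 1716 and 976 (1.82), and *Plxnd1*, a semaphorin receptor, 595 and 402 against 208 and 172 (1.37). Defining markers of endothelium were near 0: *Pecam1*, *Cdh5*, *Kdr*, *Tie1* and *Tek* had between 0 and 12.9 normalized counts in all 4 libraries. Summed over the 9 endothelial markers, levels were 2290 and 2329 with Cre and 1756 and 874 without, most of it *Emcn*, *Plvap* and *Egfl7*. *Slc8a1*, *Phactr1*, *Pgm5*, *Mpped2*, *Ddah1*, *Smarca1*, *Rora* and *Myo6* completed the list, with log2 fold changes from 1.22 to 2.14.

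No gene of the NPC self-renewal list passed the test on Cre removal (0 of 17 tested). Over all genes tested 0.179% were called higher and 0.149% lower, so that 0 calls in so short a list say little about it. The median log2 fold change was -0.40, and without the second Cre library it was -0.04. *Six2*, the transcription factor that holds NPCs in the progenitor state, had 2080.2 and 1849 normalized counts with Cre and 3454 and 1941 without (-0.40, 95% interval -1.14 to 0.33). *Cited1* had 8293 and 4845 against 8722 and 4402 (0.03, -0.93 to 0.99), a spread between replicates larger than the difference between groups. *Pax2*, needed for the kidney lineage, had 50.7 and 70.8 against 159 and 168 (-1.43, adjusted p = 0.0515), and *Sall1* 2131 and 1545 against 3692 and 3297 (-0.94, adjusted p = 0.129). Both lay wholly lower with Cre and missed the threshold. *Meox1* and *Meox2*, homeobox genes of the uninduced mesenchyme, had the largest positive values of the list, 2.12 (adjusted p = 0.242) and 0.61 (adjusted p = 0.417), with 196 and 242 against 29.98 and 80.6 for *Meox1*.

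Of the 20 genes tested of the NPC induction list, *Tgfa* alone was called, where 0.149% of all genes tested were called lower. At an unadjusted p under 0.05 (limma) 7 of the 20 were lower and 1 higher, as were 5.83% and 4.86% of all genes tested. With Cre 9 lay wholly lower and 2 wholly higher, against 18.2% and 16.1% of all genes. The median was -0.58, and -0.30 without the first Cre library, and 15 of the 20 values were negative, as were 8527 of all 16780. Several of these genes were barely expressed in low CHIR in the first place: *Wnt4*, the inducer of the epithelial transition, had 7.77 and 23.8 normalized counts without and 12.4 and 6.44 with Cre, and *Lhx1* 109 and 47.6 against 38.3 and 32.2. *Cdh4*, a cadherin, had 1841 and 1748 against 1177 and 702 (-0.98, adjusted p = 0.113), and *Id2*, an inhibitor of helix-loop-helix factors, 22990.0 and 26341 against 11809 and 18166 (-0.75, adjusted p = 0.211). Both were wholly lower with Cre without passing the test.

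**Figure D4:**
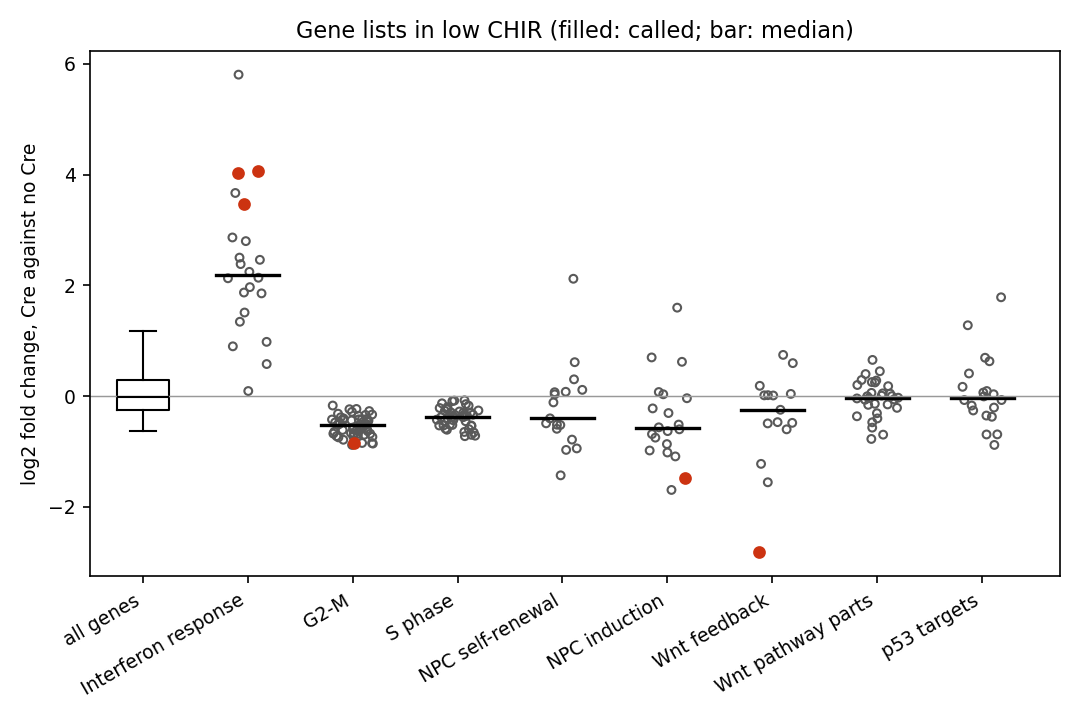
Log2 fold change on Cre removal in low CHIR for the members of 8 gene lists, with each point a gene, filled where called, and a bar at the median. The box at the left gives the median, quartiles and 5th to 95th percentile of all 16780 genes. Interferon response genes lie above 0 with a median of 2.19, and all G2-M and S phase genes lie below 0.

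Cell cycle genes had small, negative values. All 54 genes of the G2-M list had a negative log2 fold change, from -0.88 to -0.17 with a median of -0.52, and 40 had an unadjusted p under 0.05, where 5.83% of all genes tested were lower at that level. In 46 of the 54 the Cre libraries lay wholly lower, as did 18.2% of all genes tested. *Aurka* alone passed the adjusted threshold, and it was not called by edgeR. *Cdk1*, the kinase that drives entry into mitosis, had 7003 and 5076 normalized counts without and 3879.9 and 3395 with Cre (-0.72, adjusted p = 0.129). *Ube2c*, the E2 enzyme of the anaphase-promoting complex, had 7699 and 4190.1 against 3281 and 3002 (-0.86, adjusted p = 0.181), and *Birc5* (survivin) 5045 and 3349.5 against 2568 and 2397 (-0.73, adjusted p = 0.133). The first no Cre library was the highest of the 4 in all 3 of these genes. Without that library the median of the list was -0.46 and all 54 values stayed negative, and without the second it was -0.59 with 1 value positive. In bulk RNA, fewer cells in mitosis and less RNA per cell cannot be told apart.

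All 43 S phase genes were negative as well, with a median of -0.38 (-0.33 to -0.47 with a library left out, where 2 values were above 0 without the first no Cre library, 8 without the second, 4 without the first Cre library and 0 without the second). None was called and 14 had an unadjusted p under 0.05. *Pcna*, the sliding clamp of DNA replication, had 7720.2 and 5842 normalized counts without and 4612 and 4334 with Cre (-0.59, adjusted p = 0.261), and *Mcm7*, of the replicative helicase, 4718 and 4839 against 2936 and 3136 (-0.65, adjusted p = 0.171). Among the 20 regulators of G1 none was called, where 0.179% of all genes tested were called higher and 0.149% lower. *Cdk4* had 24677 and 18023 against 14442 and 14038 (-0.57) and the inhibitor *Cdkn1c* 404 and 423 against 909.7 and 1044 (1.23, adjusted p = 0.216). The 20 p53 targets had no call and a median of -0.04. On Cas9 removal in low CHIR the medians were -0.06 for G2-M and -0.19 for S phase genes, on Cre removal in high CHIR -0.42 and -0.27, and with no CHIR in wild-type NPCs -0.66 and -0.65.

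The feedback and target genes of Wnt signaling were mostly low in these cultures already. *Tnfrsf19* alone of 15 tested was called, where 0.149% of all genes tested were called lower. At an unadjusted p under 0.05 (limma) 4 of the 15 were lower, as were 5.83% of all genes, and 0 higher. With Cre 6 lay wholly lower and 2 wholly higher, against 18.2% and 16.1% of all genes. *Axin2*, a negative feedback regulator, had 115 and 64.1 normalized counts without and 29.0 and 28.3 with Cre (-1.55, SE 0.42, adjusted p = 0.161), and *Tcf7* 172 and 145 against 106 and 42.5 (-1.22, adjusted p = 0.204). *Znrf3*, a ubiquitin ligase that removes Wnt receptors, was well expressed, at 1800.1 and 1701 against 1303 and 1205 (-0.48, adjusted p = 0.28). These 3 genes were wholly lower with Cre and did not pass the test. *Lef1* had 82.2 and 85.2 against 38.3 and 78.5 (-0.60), *Nkd1* 72.2 and 33.0 against 36.2 and 66.9 (0.01), and *Sp5* and *Notum* at most 1.29 normalized counts in any of the 4 libraries. None of the 31 genes tested of the pathway's receptors, destruction complex and Tcf/Lef partners was called, with a median of -0.03. *Tcf7l2* had the lowest unadjusted p among them, at 2188 and 2959 against 3473 and 3481 (0.45, adjusted p = 0.425). No gene of the adherens junction was called either (0 of 16). Lists this short hold few calls at the shares of all genes tested, 0.179% higher and 0.149% lower. *Jup* (plakoglobin), the close relative of β-catenin, had 1083 and 827 against 915 and 799 (-0.15, 95% interval -0.77 to 0.48), and *Cdh2* (N-cadherin) 3786 and 5206 against 5715 and 6236 (0.43, -0.08 to 0.93).

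Other signaling lists were small, so that their calls stand beside shares of 0.179% higher and 0.149% lower over all genes tested. Of 13 semaphorin genes tested *Sema3c* fell and *Plxnd1* rose, of 5 genes of the GDNF family *Gfra2* fell, and of 11 in the Myc and Mxd network *Mycn* fell. No gene was called among 16 Fgf, 16 Bmp and 12 Notch genes, 12 proteases and 15 genes of the Bcl2 family. In the last list *Bcl2l11* (Bim), a promoter of cell death, had 2607 and 1560.4 normalized counts with Cre and 887 and 725 without (1.33, adjusted p = 0.053). A list of 24 genes that the study named as lower in low CHIR held 11 of the 25 that fell, and all 24 were negative, with a median of -1.42. It was chosen on these samples and so is not independent evidence of its direction. The same holds for 3 genes named as higher, of which *Angpt2* rose.

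**Figure D5:**
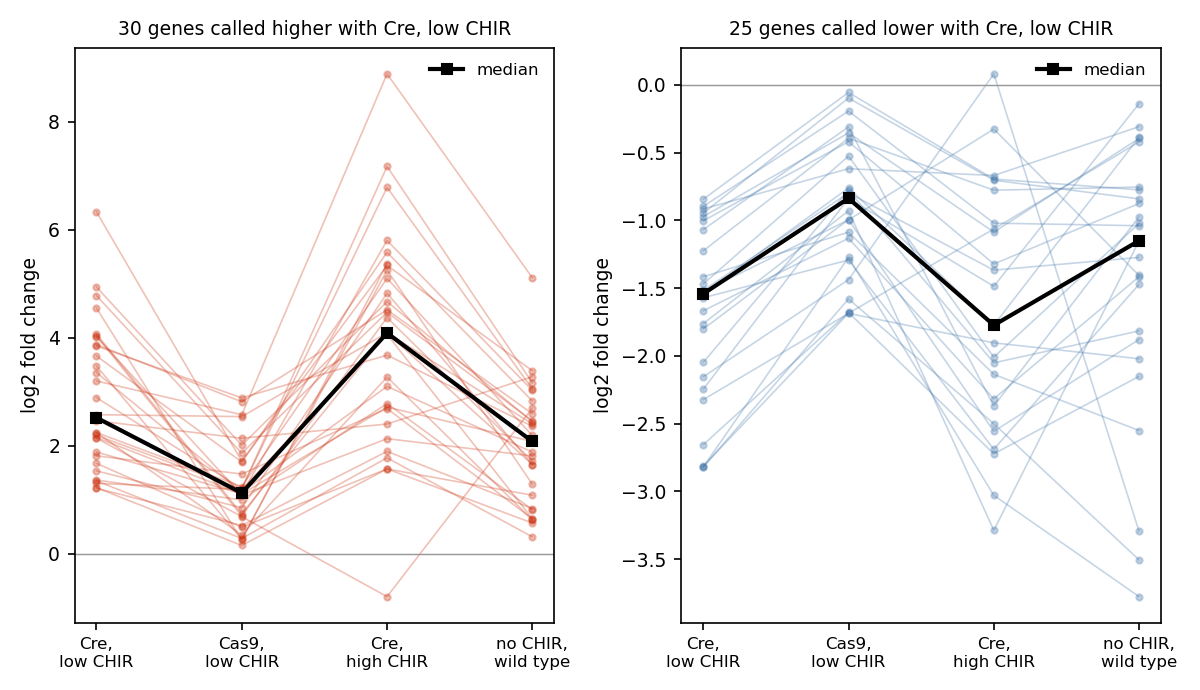
Log2 fold changes of the 30 genes that rose (left) and the 25 that fell (right) on Cre removal in low CHIR, in 4 comparisons, with 1 line a gene and the median in black. The genes were chosen on the values at the far left, and the medians, from left to right, are 2.52, 1.13, 4.09 and 2.08 at the left and -1.54, -0.84, -1.77 and -1.15 at the right.

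The Cas9 libraries ask whether the same genes moved when β-catenin was removed by another route. They share no library with the Cre comparison, but the same fit over 16 libraries gave each gene the same spread in both. A gene with a small spread was thus favored in both lists, and the shared calls are not independent of each other. With the libraries of each contrast alone, 0 genes were called on Cas9 removal. On Cas9 removal in low CHIR 6 genes rose (0.0358%) and 3 fell (0.0179%). All 30 genes that rose with Cre were positive there, where 8573 of all 16780 genes were, and all 25 that fell were negative. In both, 5 genes rose (16.7% of the Cre list and 83.3% of the Cas9 list), and 3 fell in both (12% and 100%). *Emcn* had 719.5 and 503 normalized counts with the *Ctnnb1* sgRNA against 126 and 83.3 with the GFP sgRNA, a log2 fold change of 2.54 beside 2.58 with Cre. *Sel1l3* had 288 and 177 against 789.9 and 667, -1.68 beside -2.66. All 8 shared calls sat at an adjusted p of 0.0495 in the Cas9 comparison, and a fit after TMM rescaling called none of them there. Nor did edgeR, but 1 GFP sgRNA library was left in that test, assumed to vary like the other groups, and DESeq2 on the same libraries gave 11 shared genes. The Cre effect was larger than the Cas9 effect in all 55 genes, a direction that their choice favors. No gene differed between the routes at an adjusted p under 0.05 in limma, nor in edgeR or DESeq2, which again had 1 GFP sgRNA library. At an unadjusted p under 0.05 there were 546 such genes in limma, 289 with the higher value with Cre (1.72%) and 257 with the lower (1.53%), 312 in edgeR and 289 in DESeq2. For *Mycn* the Cre effect minus the Cas9 effect was -1.27 (95% interval -2.18 to -0.36), for *Oasl2* 3.33 (1.22 to 5.44) and for *Emcn* 0.04 (-1.20 to 1.28).

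The libraries in high CHIR ask whether the genes responded alike where Wnt input was strong. There 990 genes rose (5.9%) and 462 fell (2.75%) on Cre removal. These calls too used the same spread for each gene as those in low CHIR. With the libraries of each contrast alone, 3 genes were called higher and 1 lower in low CHIR, and 4 were shared with high CHIR. Of the 30 genes that rose in low CHIR 28 also rose in high CHIR (93.3% of the low and 2.83% of the high CHIR list), and of the 25 that fell 22 also fell (88% and 4.76%). *Gfra2*, *Hs3st3b1* and *Tmem35a* were the 3 that fell in low CHIR only by these thresholds, at 0.08, -0.33 and -0.78 in high CHIR, and *Mpped2* and *Nsg2* the 2 that rose, at -0.79 and 2.13. The difference between the 2 effects was tested for every gene. It passed an adjusted p of 0.05 in 167 genes, 42 with the higher log2 fold change in low CHIR (0.25%) and 125 with the lower (0.745%), and 12 of the 55 were among them, 9 of which moved further in high CHIR. *Mpped2*, a metallophosphoesterase, rose in low CHIR, from 73.3 and 71.4 to 272 and 382 normalized counts, and had 596 and 432 without and 215 and 398 with Cre in high CHIR (difference 2.93, adjusted p = 0.0232). *Gfra2* was at 70.0 and 109 without Cre in high CHIR and at 82.8 and 103 with it, close to its level with Cre in low CHIR (difference -2.24, adjusted p = 0.0246).

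Genes of the self-renewal list that did not pass the test in low CHIR were among the 167. *Cited1* had 34.1 and 64.3 normalized counts without and 2479 and 1855 with Cre in high CHIR, against 8722 and 4402 and 8293 and 4845 in low CHIR (difference -5.45, adjusted p = 0.00053). *Meox2*, *Osr1*, *Tmem100* and *Crym* differed in the same direction. In *Cited1* the 2 Cre groups lay much nearer each other than the 2 no Cre groups did. Of the induction list *Jag1*, a Notch ligand, *Ccnd2*, *Cux2*, *Vegfc* and *Cdh4* differed, all with the more negative log2 fold change in high CHIR. *Jag1* had 11842 and 8707 normalized counts without and 1836 and 1481 with Cre in high CHIR, against 412 and 418 and 265 and 426 in low CHIR (difference 2.32, adjusted p = 0.0114).

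Wild-type NPCs without CHIR ask how the genes stood when the input itself was left out. No allele was removed in these 6 libraries, 3 in each group, and their table was normalized apart from the others. The paper describes neither transfection nor sorting for a reporter for the wild-type cells. Cells of the Cre comparison were sorted for the reporter after transfection and a further culture step in low CHIR. Without CHIR 412 genes rose (2.37% of 17411 tested) and 453 fell (2.6%) against low CHIR. Of the 29 tested of the 30 genes that rose with Cre all were positive and 11 were called, and of the 25 that fell all were negative and 10 were called. *Tnfrsf19* (-3.51, adjusted p = 0.0146), *Gfra2* (-3.30, 0.00874), *Mycn* (-1.82, 0.00362) and *Sel1l3* (-2.15, 0.00108) fell there, and *Fam19a4* (5.11, 0.00372), *Angpt2* (3.28, 0.00599) and *Tgtp1* (3.16, 0.00826) rose. *Pcp4* was an exception among the large decreases, with -0.42 (adjusted p = 0.906), and *Lmcd1*, with -0.14 (0.901), another. *Oasl2* and *Rtp4* had 1.65 and 1.72 and were not called. Across all genes the log2 fold changes on Cre removal in low CHIR had a Pearson r of 0.506 with those of no CHIR (16294 genes tested in both tables), 0.472 with Cre removal in high CHIR and 0.249 with Cas9 removal (16780 genes each). These are descriptions across genes, which are not independent replicates.

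The cell type was checked against markers. The 10 NPC markers were read in all 4 libraries, with summed normalized counts of 18261 to 26653 with Cre and 23401 to 31176 without. Summed over 10 markers of stroma, levels were 13350 to 18229 with Cre and 10066 to 15244 without, most of it *Col1a1*, *Col3a1* and *Tcf21*, while *Foxd1*, which defines stromal progenitors, had 5.17 to 32.2. These markers went both ways, 7 with a positive log2 fold change and 3 with a negative. *Col1a1* had 6154 and 9608 with Cre and 2282 and 5151 without, and *Tcf21* 2273 and 2007 against 4951 and 4151. The 12 markers of ureteric epithelium summed to 563 to 723 with and 529 to 667 without Cre, with *Ret* at most at 1.83. Markers of podocytes and tubules summed to 211 to 367 and 221 to 229, and those of blood to 117 to 134 and 68.9 to 77.8, with 5 of the 11 blood markers not in the table. The parts that these cells have in the values above were not tested.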

How the data were processed

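RNA of NPCs was converted to cDNA with a SMARTer Ultra Low kit, sequenced on an Illumina instrument, aligned (STAR) against a joint reference of 2 genomes, GRCm38 of mouse and GRCh38 of human, and counted per gene with featureCounts over uniquely aligned, unambiguous reads. The deposited tables hold signal in the form of normalized counts, gene counts that the authors divided by size factors of DESeq2. Values were whole multiples of 1 read in each library, so reads were recovered (100% whole). Even so, 2 libraries whose values were whole as well were left out of the count tests (GFP sgRNA in low CHIR, Cre in high CHIR, replicate 1 of each). That leaves 1 library in each of these groups there.

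The log2 of the normalized count plus 1 was fitted with limma 3.58.1 (trend, Benjamini-Hochberg adjustment) in R 4.3.3 over the 8 groups of the table, and called genes had an adjusted p below 0.05 and changed by 0.5 or more on the log2 scale. On this scale the change of low genes is understated. Differences between effects were contrasts of the same fit. Any called gene and any member of the gene lists could be named. Full values were due for the 10 largest changes in each direction among called genes with a mean of at least 50 and groups that do not overlap. The same held for the 3 largest differences of effects each way. *Bcat1* and *Slc7a5* were chosen after their values were seen. Genes and lists were chosen with earlier results of these data known. Alternatives were a pseudocount of 0.5, other filters, the 4 libraries alone, TMM, edgeR 4.0.16 and DESeq2 1.42.0 on recovered reads, a replicate block and each library left out. The method was tested on simulated data. The 8 tables of the authors' own comparisons, which hold fold changes and p-values, and 61 other columns of values per sample were not used.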

Additional observations from a re-analysis of the deposited data

Results flagged for a closer look

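The test of the difference between effects set 167 genes apart, in which the log2 fold change on Cre removal differed between low and high CHIR at an adjusted p below 0.05 (limma). Differences are given as the value in low CHIR minus that in high CHIR. The largest negative ones were *Ch25h*, cholesterol 25-hydroxylase, at -8.01, *Fgf1* at -6.82 and *Rgs4*, a brake on G protein signaling, at -6.59. *Ch25h* had 2793 and 2429 normalized counts without and 6529 and 4628 with Cre in low CHIR, and 4.603 and 21.8 without and 7029 and 5379 with Cre in high CHIR. Both Cre groups were thus high, and the no Cre group was near 0 in high CHIR.

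Among genes that rose in low CHIR, the difference was -5.69 for *Fam19a4*, -4.98 for *Tgtp1*, -3.92 for *Pgm5*, -3.89 for *Tgtp2*, -3.29 for *Phactr1*, -2.85 for *Cxcl12*, -2.76 for *Ddah1* and 2.93 for *Mpped2*. Among those that fell it was -2.24 for *Gfra2*, -1.75 for *Pcp4*, 1.30 for *C1qtnf12* and 1.53 for *Tnfaip6*. In the self-renewal list it was -5.45 for *Cited1*, -4.49 for *Meox2*, -4.14 for *Osr1*, -4.04 for *Tmem100* and -3.92 for *Crym*. In the induction list it was 1.59 for *Cdh4*, 2.32 for *Ccnd2* and for *Jag1*, 2.75 for *Cux2* and 3.44 for *Vegfc*. *Lhfpl2* and *Lrp4*, a co-receptor that binds Wnt inhibitors, differed by 3.17 and 2.80. *Lrp4* had 406 and 466 normalized counts without and 310.5 and 306 with Cre in low CHIR, and 8558 and 10686 without and 793 and 1202 with Cre in high CHIR.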

How the results depend on the processing

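All 55 genes kept the sign of their log2 fold change under each alternative, and no result reversed. With the 4 libraries of the comparison alone, 3 genes were called higher and 1 lower, and with DESeq2 145 and 113. Leaving out 1 library gave 10 to 193 higher and 8 to 110 lower. The number of genes whose Cre effect differed between low and high CHIR was 49 with the libraries of the contrast alone, 106 with edgeR and 300 with DESeq2, both with 1 Cre library left in high CHIR that is assumed to vary like the other groups, and 95 to 165 with a library left out. The number of genes whose Cre and Cas9 effects differed was 0 throughout. Genes called on both Cre and Cas9 removal numbered 0 with a pseudocount of 0.5, with the libraries of the contrast alone, with TMM and with edgeR, 7 without a filter, 8 with a filter over the 4 libraries, 11 with DESeq2, and 0 to 1 with a library left out. Those shared with Cre removal in high CHIR numbered 4 with the libraries of the contrast alone, 159 with DESeq2 and 18 to 103 with a library left out. Those shared with no CHIR in wild-type NPCs numbered 4, 127 and 10 to 43 in the same settings. The cause of these differences was not tested.

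The replicate number as a block gave 274 genes higher and 239 lower, 526 genes whose effect differed between low and high CHIR, and 20, 343 and 134 genes shared with Cas9 removal, Cre removal in high CHIR and no CHIR. Deviations of same-numbered Cre and no Cre libraries had a correlation of 0.334, over 2 pairs, and over 6 such pairs of groups correlations ran from 0.297 to 0.518, but no label ties same numbers to a shared culture.

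With 2 libraries in a group, the log2 fold change of *Ctnnb1* RNA ranged from -0.50 to -0.17 with a library left out. A small change of this RNA cannot be told from none.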
